A study of Drosophila melanogaster with 3 samples.

Results

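Of the 13583 peak summits in the authors' optimal list for Pdp1-eGFP on the dm6 assembly, 4915 (36.2%) lay near promoters and were counted as non-divergent. A summit is the position of highest signal in a peak. These peaks were taken as summits within 1 kb of the transcription start site (TSS) of a protein-coding gene, leaving out summits within 1 kb of both TSSs of a divergent pair. A divergent pair is a minus-strand TSS and a plus-strand TSS that point away from each other and lie at most 1 kb apart. For 224 of the 4915 the nearest TSS belonged to such a pair, but the summit was farther than 1 kb from the partner. Of the other summits, 2004 lay at divergent promoters and 6664 were distal, farther than 1 kb from any such TSS.

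The peaks came from anti-GFP ChIP-seq, in which DNA bound by a tagged protein is precipitated and sequenced, in whole Drosophila melanogaster embryos. The embryos, of pooled sexes and 0 to 24 h old, came from 1 transgenic line that stably expressed Pdp1 with eGFP fused to its C-terminus, so the values average over all cells and ages of embryogenesis. The series held 1 group of 3 biological replicates and no second condition, and a control alignment served the authors' peak calling. What drives the tagged gene, and where its transgene is inserted, are not given in the labels.

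Pdp1 belongs to the PAR bZIP transcription factors, which bind DNA as dimers through a basic region and a leucine zipper. In flies it is known to activate Clk, to regulate muscle genes, and to act in the growth and metabolism of the fat body. A promoter that stands alone has its upstream side free of another start site, so that upstream and downstream positions can be told apart there. Such promoters include developmental genes, often with a TATA box or an Initiator, and housekeeping genes, often with the DNA replication-related element (DRE) or Ohler motif 1.

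The sequences at the strongest peaks carry the words described below, and are shown because the canonical PAR bZIP site and its relatives are short words that can be compared side by side at different genes. The family word TTRYRYAA (R is A or G, Y is C or T) covers the sites of PAR bZIP and C/EBP factors. The canonical PAR bZIP site TTAYGTAA is contained in it, and so is TTGCGCAA. Sequences are from the Release 6 genome (dm6), 5′ to 3′ on the strand of the gene with the nearest TSS, and capitals mark each family word. Windows that touch a UTR are cut to 30 bases.
Pdp1, chr3L:7867599-7867675, minus strand: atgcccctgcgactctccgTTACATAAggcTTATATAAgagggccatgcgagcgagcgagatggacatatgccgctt
indra, chr3L:1342429-1342458, minus strand: acgcaaagctgTTGCATAAcgcgacgtgag
tara, chr3R:16242630-16242701, plus strand: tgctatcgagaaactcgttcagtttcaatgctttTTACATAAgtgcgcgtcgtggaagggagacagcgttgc
CG12054, chr3R:31220909-31220938, plus strand: gcagccctcaaTTGCATAAcatcacttgcg
ETHR, chr3R:21246652-21246737, plus strand: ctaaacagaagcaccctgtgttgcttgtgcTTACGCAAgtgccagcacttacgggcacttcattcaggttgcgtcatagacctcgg
nej, chrX:9687912-9687986, minus strand: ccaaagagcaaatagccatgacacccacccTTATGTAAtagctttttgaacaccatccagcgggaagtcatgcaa
Acat1, chrX:7888750-7888779, minus strand: ttaccggtttgTTACGCAAgcaacaggtct
RhoGEF3, chr3L:291969-292036, plus strand: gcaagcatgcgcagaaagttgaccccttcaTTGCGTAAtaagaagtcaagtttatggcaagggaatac
At Acat1 the family word stands beside the DRE, TATCGATA, which is shown in capitals here because the pair at 1 summit was rare among these peaks.
Acat1 DRE, chrX:7888775-7888804, minus strand: cagctgttgccTATCGATAgaccgattacc

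The strongest of these peaks stood at Pdp1, indra, CG32369 and tara. The peak of highest signal lay at Pdp1 itself, at chr3L:7867031-7867949, with a deposited signal of 11903 in the optimal list. Its signals in replicates 1, 2 and 3 were 7963, 1945 and 2031, and its ranks among all peaks there were 1, 6 and 1. The summit was intergenic, 260 bp upstream of the TSS. Its window held both a canonical site and TTATATAA. Signal is the authors' value for each peak, on a scale of its own in each list, and is used here to rank peaks within a list. Within the Pdp1 gene and 20 kb on each side there were 9 of these peaks, of which 7 were among the strongest 10% of the optimal list. Whether the transgene carries sequence of this locus is not given in the labels, and the part of extra copies in the signal here was not tested. Without these peaks the share of summits with the family word stayed at 28.6%.

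The peak at indra, which encodes a zinc finger protein, ranked 2, 1 and 2 in replicates 1, 2 and 3, with its summit 21 bp upstream of the TSS. The peak at tara, a co-regulator of transcription that affects sleep, ranked 4, 9 and 4, and its intronic summit stood 156 bp before a TSS. The peak at ETHR, the receptor for ecdysis triggering hormone, ranked 6, 13 and 16, and its summit was intergenic, 304 bp upstream. Each of these held its place near the top of all 3 lists. The peak at nej, which encodes the histone acetyltransferase and co-activator CBP, lay 876 bp upstream of a TSS and ranked 24, 34 and 32. The peak at Acat1, an enzyme of thiolase type, had its summit in the 5′ UTR, 3 bp downstream of the TSS, and ranked 36, 40 and 47.

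**Figure D1:**
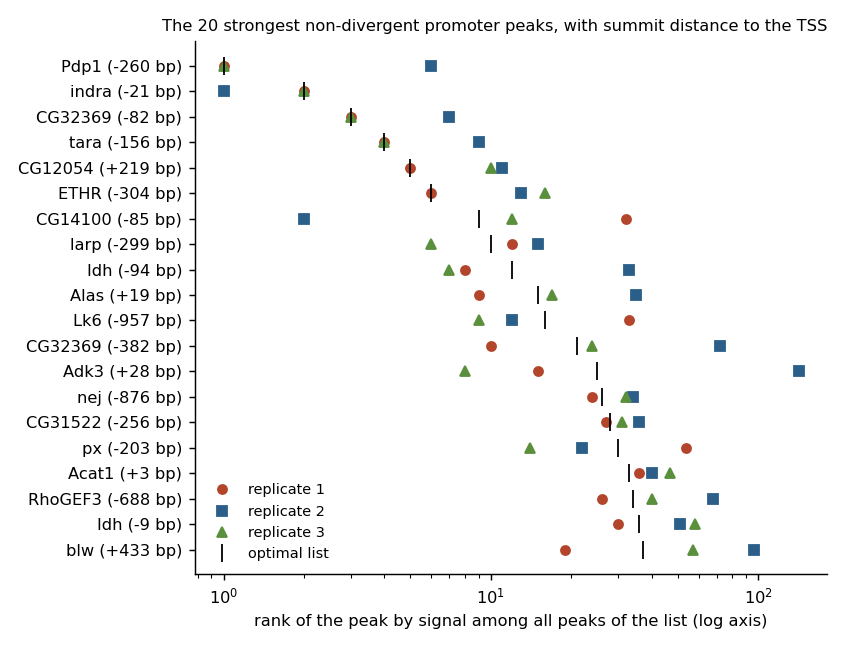
Rank by signal (log axis, 1 is the strongest peak of a list) of the 20 strongest non-divergent promoter peaks that were found in all 3 replicates, in the optimal list (bar) and in each replicate (symbols), with the distance of the summit from the nearest TSS in brackets. The 20 peaks ranked 54 or better in replicate 1, 142 or better in replicate 2 and 58 or better in replicate 3.

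Of the 20 strongest peaks found in all 3 replicates, 12 held the family word within 50 bp of the summit, 5 held the canonical site and 1 held the DRE. Summits of 15 lay upstream of the TSS, and 14 lay within 300 bp of it. Enzyme genes among the 20 were Acat1, described above, Idh, an isocitrate dehydrogenase with peaks 94 bp and 9 bp upstream of TSSs, Alas, the enzyme that starts haem synthesis, Adk3, a mitochondrial adenylate kinase, and blw, the alpha subunit of ATP synthase. The list also held larp, which encodes an RNA-binding protein, Lk6, a kinase that phosphorylates the cap-binding factor eIF4E, px, a nuclear protein of wing vein patterning, RhoGEF3, a guanine nucleotide exchange factor, and the little-studied CG32369, CG12054, CG14100 and CG31522. CG32369 had 2 of the 20 peaks and adjoins Pdp1. The ranks of single peaks moved between replicates. The peak 85 bp upstream of CG14100 ranked 32, 2 and 12 in replicates 1, 2 and 3, and that in the 5′ UTR of Adk3 ranked 15, 142 and 8.

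Summits gathered just upstream of the start. The median summit lay 45 bp upstream of the nearest TSS, at −45 bp, with quartiles at −269 and +214 bp, and 58.1% of the 4915 lay upstream. In the 13583 strongest lines of replicates 1, 2 and 3 the median positions of such summits were −28, −71 and −38 bp (mean −45.7 ± 22.5 bp, SD, n = 3). The last 100 bp before the TSS held 847 of the summits. By annotation at the summit itself, 41.0% were in introns, 31.7% were intergenic, 20.6% were in 5′ UTRs, 3.87% in coding exons and 2.85% in 3′ UTRs. An intronic or exonic summit can belong to another transcript of the gene, or to a neighbouring gene that overlaps its promoter.

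The summits with the family word were placed differently from the rest. The word lay within 50 bp of the summit at 1403 peaks, 28.5% (95% Wilson interval 27.3 to 29.8), and was absent from that window at 3512. Of the peaks without the word, 63.2% were upstream of the TSS, against 45.3% of those with it. Leaving out divergent pairs takes away upstream summits by rule, so these shares depend in part on it. Among peaks whose nearest TSS had no divergent partner, the upstream shares were 65.9% without the word and 48.2% with it. In replicates 1, 2 and 3 the upstream shares were 58.9%, 67.6% and 61.7% without the word, and 45.3%, 48.8% and 45.8% with it. The groups of 3 values did not overlap. Over peaks the odds ratio was 0.482 (two-sided Fisher exact test, p = 2.59e-30, Benjamini-Hochberg (BH) adjusted over 8 tests 4.15e-30). A p-value taken over peaks here and below measures variation between peaks, not between replicates.

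Peaks without the word also lay closer to the start. Their summit was within 100 bp of the TSS at 33.9%, against 14.0% of peaks with the word (odds ratio 0.318, two-sided Fisher exact test, adjusted p = 1.02e-47). The 3 replicates gave 34.2%, 30.9% and 36.7% without the word and 13.2%, 15.9% and 17.97% with it. The median distance from the TSS, in either direction, was 201 bp without the word, 379 bp with it and 410 bp with the canonical site.

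**Figure D2:**
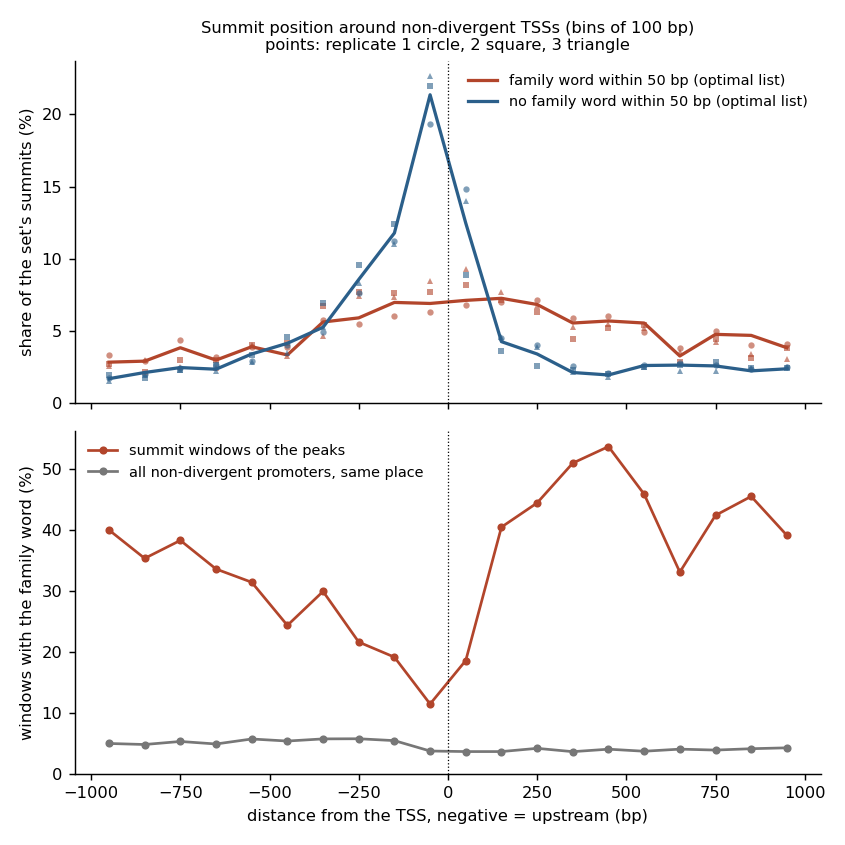
Upper panel: share of summits (%) in each 100-bp bin around the nearest TSS, for peaks with and without the family word within 50 bp (lines: optimal list; points: replicates). Lower panel: share of summit windows with the word (%) by position, against windows at the same place of all non-divergent promoters. Peaks without the word rise to 21.4% of their set in the last 100 bp before the TSS, where peaks with it stand at 6.91%, and the word's share at summits falls there to 11.5%.

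The share of summits with the word therefore changed along the promoter. It was 11.5% in the last 100 bp before the TSS and 18.6% in the first 100 bp after it, and rose to 53.7% of the 149 summits 400 to 499 bp downstream. Of the 770 summits 100 to 499 bp downstream, 46.2% held the word. Windows of the same 101 bases at the same places of all 13028 TSS clusters outside divergent pairs held it at between 3.63% and 5.75%. Along the whole 2 kb the summit windows stood above those values.

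Annotation at the summit moved with position. Summits with the word were intergenic at 22.0%, against 35.5% of those without it, and intronic at 46.8% against 38.7%. Of the peaks with the word, 6.13% were in 3′ UTRs (1.54% without it) and 5.84% in coding exons (3.08% without it). In replicates 1, 2 and 3 the 3′ UTR shares were 7.06%, 3.91% and 4.93% with the word, and 1.57%, 1.76% and 1.69% without it. All of these values with the word were higher than those without it.

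The word stood at the summit rather than anywhere in the promoter. In windows 300 bp upstream of the same summits it was found at 5.35%, a difference of 23.2 percentage points (exact two-sided sign test over peaks, adjusted p = 1.56e-210), and in windows 300 bp downstream at 4.13%. Among replicates the share at summits was 32.3%, 21.2% and 19.7%, a mean of 24.4% ± 6.84 (SD, n = 3), and that 300 bp upstream was 5.42% ± 0.162. Replicate 1 was the highest, and the lowest replicate was still above the upstream windows. The centre of the word lay a median of 15.5 bp from the summit, within a limit of 50 bp that caps this value.

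Some words of the family were more frequent than others at these summits. TTACATAA, with its reverse complement TTATGTAA, was at 7.04% of summits and 0.793% of the windows 300 bp upstream. TTATATAA was at 6.51% and 0.855%, and TTATGCAA at 5.39% and 0.671%. The palindrome TTACGTAA was at 1.85% and 0.163%. TTGTACAA, which also matches the family pattern, was at 0.264% of summits and 0.244% of the upstream windows, about as often as beside the peaks. In replicates 1, 2 and 3 TTACATAA was at 8.36%, 4.25% and 4.10% of summits, and TTGTATAA at 2.17%, 2.27% and 2.02%.

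TTATATAA resembles the TATA box, TATAWAAR (W is A or T). Of the 341 peaks with the TATA pattern in their summit window, 170 had it inside an occurrence of TTATATAA. Of the 321 occurrences of TTATATAA, 1.87% lay 20 to 40 bp upstream of the TSS, where a TATA box stands. The share was 1.15% for all occurrences of the family word and 23.3% for those of the DRE. No expected share was computed for this place, and these values were not tested.

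Peaks at non-divergent promoters held the word more often than those at divergent ones and less often than distal peaks. At divergent promoters the family word was at 20.1% of summits (odds ratio 1.59, two-sided Fisher exact test over peaks, p = 1.29e-13, BH-adjusted over 32 tests 6.9e-13), and at distal summits it was at 45.9% (odds ratio 0.472, adjusted p = 1.85e-79). In the replicates the difference from divergent promoters was 9.08, 6.73 and 5.36 percentage points, a mean of 7.06 ± 1.88 (SD, n = 3). The difference from distal peaks was −19.1, −7.78 and −9.21 points. The sign was the same in all 3 replicates in both comparisons, while the sizes differed. Median distance from the TSS was 71 bp at divergent and 248 bp at non-divergent promoters, and distal summits are farther away by rule. These shares, and those of other motifs between classes below, were not matched for distance, and its part was not tested.

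The canonical site was at 8.89% of these summits, 6.99% of divergent and 15.8% of distal ones. The difference from distal peaks passed the test (two-sided Fisher exact test, adjusted p = 1.77e-27). That from divergent promoters, 1.91 percentage points, passed narrowly (two-sided Fisher exact test, adjusted p = 0.0170). Each replicate, which had still shaped the optimal list, was set aside in turn, and peaks found in both others were kept. The difference was lost in all 3 of these subsets, at 0.192 to 0.702 points. It was also lost, by the same exact test, in the stronger 50% of the list (adjusted p = 0.161) and with divergent pairs at most 500 bp apart (adjusted p = 0.0557).

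The DRE showed the opposite order. It was at 126 of the 4915 summits, 2.56%, against 5.94% at divergent promoters (odds ratio 0.417, two-sided Fisher exact test, adjusted p = 1.91e-10) and 0.225% at distal summits (odds ratio 11.7, adjusted p = 1.73e-30). In replicates 1, 2 and 3 it was at 2.22%, 2.93% and 2.37%, a mean of 2.50% ± 0.376 (SD, n = 3). The DRE also stood above the windows 300 bp upstream, at 0.814%, and above the 0.462% of all windows within 1 kb of TSSs outside pairs. Neither background was matched in position. In the last 100 bp before the TSS it was at 10.4% of summits, against 3.05% of all promoters at the same place. In the first 100 bp after it the shares were 3.90% and 0.714%. Farther away the summits were above the promoters in some bins and below in others, with 0.260% against 0.683% at 201 to 300 bp upstream. Of the 126 peaks, 86.5% had their summit within 100 bp of the TSS and 77.8% had it upstream.

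**Figure D3:**
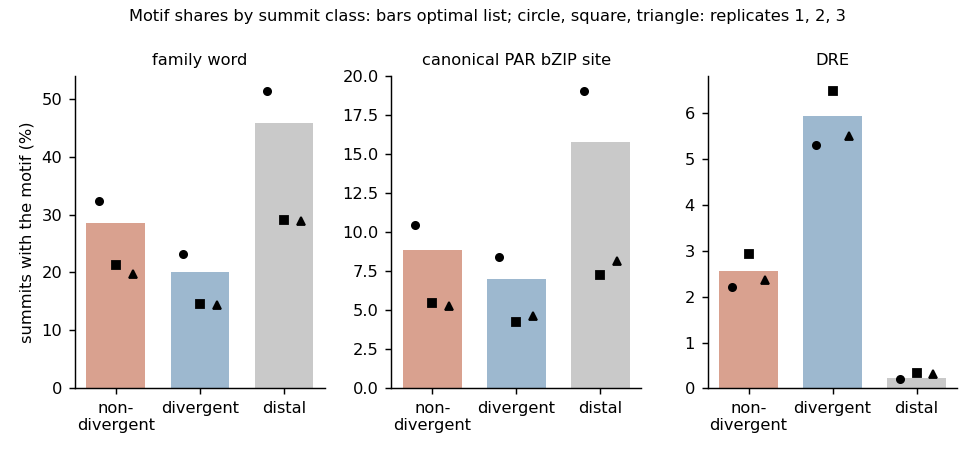
Share of summits (%) with the family word, the canonical PAR bZIP site or the DRE within 50 bp, at non-divergent promoters, divergent promoters and distal positions (bars: optimal list; symbols: replicates). The family word runs from 20.1% at divergent promoters through 28.5% to 45.9% at distal summits, and the DRE from 5.94% through 2.56% to 0.225%.

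Only 15 peaks held both the DRE and the family word, and 14 of them were found in all 3 replicates. They were Acat1, Wnk, CG31126, NdufA3, ssp3, CG4610, Cat, mud, CG11398, CkIIalpha-i3, Acp26Aa, PIG-T, ergic53, bbx and ref(2)P, named because the count is small and after their values were seen. The exception in the replicates was Acp26Aa. Their median signal was 1919, against 335 for all peaks with the DRE and 476 for all peaks with the word. Their median rank was 313. Found in all 3 replicates were 65.9% of all 4915 peaks, 75.4% of those with the DRE and 63.6% of those with the word. This share was 98.2% for peaks ranked 1 to 1064 in the optimal list and 7.72% for those ranked 12097 to 13577. The 15 were not matched for signal, and its part in their recovery was not tested. Wnk, a kinase of ion transport, ranked 39, 54 and 42 in the 3 replicates, and Cat, the catalase gene, ranked 182, 331 and 390. These are descriptions of a set of 15 and were not tested.

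A further 3 patterns were ordered like the DRE. Ohler motif 7 (CAKCNCTR, K is G or T) was at 6.45% of these summits, 11.5% of divergent and 2.39% of distal ones. Ohler motif 1 was at 1.28%, 2.40% and 0.105%, and the E-box CAGCTG at 6.53%, 10.03% and 3.74%. All 6 of these differences passed the two-sided Fisher exact test, with adjusted p-values of at most 0.00325. The TATA pattern was not ordered this way. It was at 6.94% of these summits, below the 9.87% at distal summits (two-sided Fisher exact test, adjusted p = 6.77e-08), and the difference from divergent promoters, at 6.24%, did not pass (adjusted p = 0.388). The family word TTATATAA, which overlaps the TATA pattern, was at 6.51% of these and 11.5% of distal summits. Its part in the TATA difference was not tested. The Initiator, TCAKTY, was at 23.1% of these summits, 21.0% of divergent and 24.7% of distal ones, and neither difference passed (two-sided Fisher exact test, adjusted p = 0.105 and 0.0650). The GAGA element, GAGAGAG, had another order. It was at 3.09% of these summits, above the 1.40% at divergent promoters (two-sided Fisher exact test, adjusted p = 7.37e-05) and the 2.16% at distal summits (adjusted p = 0.00409). It was not more frequent at the summit than 300 bp upstream, where it was at 2.95% (exact two-sided sign test, adjusted p = 0.764), or 300 bp downstream, at 3.01% (adjusted p = 0.859). The Initiator was at 23.9% of upstream and 21.7% of downstream windows. The MEF2 site of muscle genes was at 2.85% of the summits, below the 5.01% of windows 300 bp upstream (exact two-sided sign test, adjusted p = 9.61e-08), while the difference from windows 300 bp downstream, at 3.07%, did not pass (adjusted p = 0.633). It was at 4.49% of divergent summits (two-sided Fisher exact test, adjusted p = 0.00206) and 2.90% of distal ones (adjusted p = 0.940). Of the 16 motifs, 8 differed from divergent promoters and 10 from distal summits at an adjusted p under 0.05. All motifs were searched on both strands. The other 6 were the cyclic AMP response element TGACGTCA, the AP-1 site TGASTCA (S is C or G), the E-box CACGTG bound by CLK and CYC, the Zelda site CAGGTAG, the GATA site WGATAAG and the C/EBP word TTGCGCAA. They were at 0.427%, 1.22%, 1.57%, 0.509%, 4.56% and 0.855% of these summits in that order. Among them only the last pair passed, against distal summits, where the GATA site was at 5.72% and TTGCGCAA at 1.44% (two-sided Fisher exact test, adjusted p = 0.0113 and 0.00827).

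The background of each pattern in promoters was measured as well. In windows of 101 bases spread over 2 kb around all TSS clusters outside pairs, the family word was at 4.54%, the canonical site at 0.807%, TTGCGCAA at 0.151%, TGACGTCA at 0.153%, TGASTCA at 0.870%, CACGTG at 1.25% and CAGCTG at 4.79%. GAGAGAG was at 1.73%, CAGGTAG at 0.628%, WGATAAG at 3.05%, the TATA pattern at 4.71%, TCAKTY at 22.9%, Ohler motif 7 at 3.31%, Ohler motif 1 at 0.134% and the MEF2 site at 3.395%. At the summits of the peaks all of these patterns but CAGGTAG and the MEF2 site were at higher shares than in this background. For TCAKTY the Wilson interval at summits, 21.9 to 24.3%, held the background value. For CACGTG it began at 1.26%, close to that value. GAGAGAG was also above this background in the windows upstream and downstream of the summits, at 2.95% and 3.01%. The background was not matched to the positions of the summits, and the differences from it were not tested.

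Promoters with a peak differed in core elements from those without one. TSSs of a gene within 100 bp of each other were merged into clusters, and 4570 of the 13028 clusters outside divergent pairs had one of the 4915 summits within 1 kb. The DRE stood between 150 bp upstream and 50 bp downstream of 6.32% of the clusters with a peak (95% Wilson interval 5.65 to 7.07) and of 2.70% of those without (2.37 to 3.06). Ohler motif 1 was at 3.04% and 1.04%. A TATA box 45 to 15 bp upstream was at 3.33% of clusters with a peak and 7.02% of those without. Over the replicates the TATA share was 3.05% ± 0.505 with a peak and 7.23% ± 0.368 without (SD, n = 3). The Initiator differed less, at 17.0% and 15.7%. Neighbouring clusters of a gene can share a peak, and these shares were not tested.

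Recovery in all 3 replicates together placed these peaks between divergent and distal ones, an order that replicate 1 alone did not show. Of the 4915, 3238 (65.9%) lay within 200 bp of a summit among the 13583 strongest lines of every replicate, against 72.8% at divergent promoters (two-sided Fisher exact test over peaks, adjusted p = 2.48e-08) and 53.0% of distal summits (adjusted p = 4.97e-44). With the whole replicate lists of 30000 lines the shares were 90.2% and 90.3% at non-divergent and divergent promoters, and that difference did not pass (two-sided Fisher exact test, adjusted p = 0.929). Replicates 1, 2 and 3 held 89.7%, 80.9% and 84.4% of the peaks. At divergent promoters they held 86.0%, 89.7% and 91.0%, and of distal summits 90.1%, 69.0% and 71.8%. The divergent share was thus the lowest in replicate 1 and the highest in replicates 2 and 3. Of the peaks at non-divergent promoters, 639 (13.001%) were among the strongest 10% of the optimal list, against 16.8% at divergent promoters (two-sided Fisher exact test, adjusted p = 5.21e-05) and 5.73% of distal summits (adjusted p = 1.93e-41).

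The replicates differed most in the peaks with the word. Replicates 1, 2 and 3 held 97.4%, 74.1% and 74.3% of the peaks with it. Of those without it, the shares were 86.6%, 83.6% and 88.4%. Of the 346 peaks found in replicate 1 alone, 66.8% held the word and 0.867% the DRE. Of the 328 found in replicates 2 and 3 alone, 6.402% held the word and 4.57% the DRE, and 78.0% lay upstream of the TSS. The lists give no read counts, so the depth of each replicate is unknown, and its part in this difference was not tested.

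**Figure D4:**
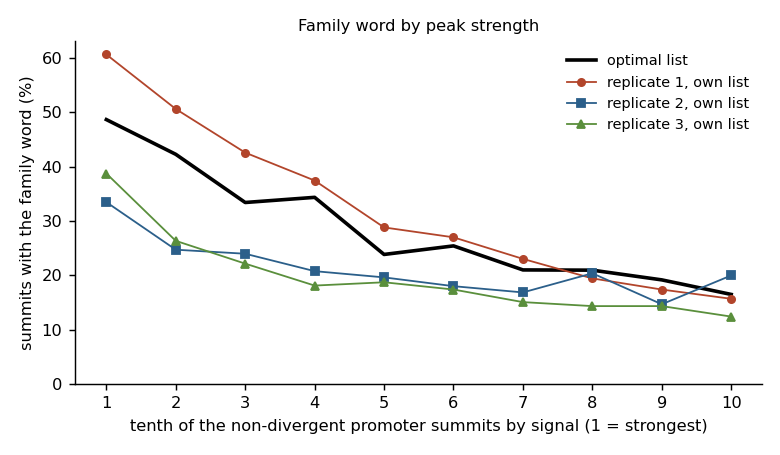
Share of summits with the family word (%) in each successive 10% of the non-divergent promoter summits, from the strongest to the weakest by signal, in the optimal list and in the 13583 strongest lines of each replicate. The share falls from 48.7% to 16.5% in the optimal list, from 60.7% to 15.7% in replicate 1, from 33.5% to 19.96% in replicate 2 and from 38.7% to 12.4% in replicate 3.

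How the word moved with strength depended on which peaks were ranked. In each replicate's own list, the strongest 10% of the summits at non-divergent promoters held it at 60.7%, 33.5% and 38.7%, and the weakest 10% at 15.7%, 19.96% and 12.4%. The difference was 28.3 ± 15.8 percentage points (SD, n = 3), positive in all 3 replicates and largest in replicate 1. The order was not the same when the peaks of the optimal list were ranked by the signal of the strongest summit within 200 bp in each whole replicate list. By the signal of replicate 1, which matched 4842 of them, the strongest 10% held the word at 55.6% and the weakest at 5.17% (two-sided Fisher exact test, BH-adjusted over 8 tests, p = 1.85e-71). By that of replicate 2, with 4645 matched, the shares were 34.3% and 39.9%, and by that of replicate 3, with 4724, they were 39.0% and 45.1%. The sign was thus opposite in replicates 2 and 3, where the differences did not pass (two-sided Fisher exact test, adjusted p = 0.143 and 0.130). All 3 replicates shaped the optimal list, so a peak of it that is weak in 1 replicate can have entered through the others. The part of this selection in the shares, p-values and signs of these rankings was not tested. For the DRE the difference between the strongest and the weakest in the replicates' own lists was 0.633 ± 1.18 points, smaller than the spread between replicates. With the optimal list ranked by replicates 1, 2 and 3, the DRE was at 2.48%, 2.80% and 3.39% of the strongest 10%. It was at 3.72%, 0.216% and 2.12% of the weakest. The difference passed by replicate 2 alone, on 13 peaks against 1 (two-sided Fisher exact test, adjusted p = 0.00454). Peaks with the word had a median signal of 476 in the optimal list, against 317 for those without it.

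The peaks were spread over many genes. They had 3252 different genes as the nearest, of which 2219 were nearest to 1 peak, 661 to 2 and 372 to 3 or more. Svil, which encodes the actin-binding protein supervillin, had the most, 12 summits around its 16 TSS clusters, 8 of them found in all 3 replicates. It was followed by Rtnl1, a reticulon of the endoplasmic reticulum, with 9. Both were named after the counts were seen. Within 1 kb of 309 peaks there were TSSs of 2 or more genes.

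Where a gene had several promoters, the difference between the first and the later ones did not pass the test. Of 882 genes with a first TSS cluster outside pairs and a later one at least 2 kb away, 251 had a peak at both, 180 at the first alone, 160 at a later one alone and 291 at neither (exact two-sided sign test over genes, adjusted p = 0.303). Replicates 1, 2 and 3 gave 176, 180 and 193 genes with the first alone, and 172, 163 and 147 with a later one alone. A gene with several later clusters has more chances of a later peak. In genes with 1 later cluster alone, a restriction chosen after seeing the data, the first made up 63.0% of the genes with a peak at 1 of the 2 (exact two-sided sign test, adjusted p = 0.000169).

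A peak of this kind lay within 1 kb of a TSS of 3245 of the 9647 protein-coding genes with a TSS outside divergent pairs, and this 33.6% is the background for the gene lists. In the replicates the share was 33.0%, 35.1% and 35.5%. Genes with 1 TSS cluster outside pairs had a peak at 25.9%, and genes with 2 or more at 59.8%, so lists rich in genes of many promoters start from a higher value. Over all genes with a peak, the strongest one ranked at a median of 4952 in the optimal list and held the family word at 33.2%. The lists below are described by counts alone and were not matched for the number of promoters, whose part in their shares was not tested.

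Genes of mitochondrial ribosomes, complex I and cytosolic ribosomes were above the background. Only genes with a TSS outside divergent pairs were counted. These were 15 of 73 mitochondrial ribosomal, 21 of 40 complex I and 37 of 86 cytosolic ribosomal genes. All 15 of these mitochondrial ribosomal protein genes had a peak, in each of the 3 replicates too, with a median best rank of 1003 and the word at 8. The strongest were mRpL12, mRpL40 and mRpL14, with summits 30, 25 and 20 bp downstream of the TSS. Of 21 complex I genes, which encode the first enzyme of the respiratory chain, 12 had a peak, with a median best rank of 614 and the word at 8. ND-B14.7 and ND-ACP ranked 171 and 263, each with a canonical site. Of 37 cytosolic ribosomal protein genes, 26 (70.3%) had a peak, but 1 of these best peaks held the word, at RpS30. The replicates gave 23, 31 and 27 genes. RpL23A and RpL30, with ranks of 1087 and 1100, had summits 84 and 17 bp upstream of the TSS. Among translation initiation factors 11 of 26 had a peak (42.3%, with a 95% Wilson interval of 25.5 to 61.1 that holds the background), led by eIF6, eIF4A, the helicase that unwinds mRNA, and eIF4E1, which binds the cap.

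Regulators of growth, hormone response and stress were above it as well, in lists not matched for the number of promoters. The 95% Wilson intervals were 56.7 to 91.5% for insulin and TOR, 51.2 to 88.2% for bZIP and 48.0 to 89.1% for ecdysone response genes. Each interval held the 59.8% of all genes with 2 or more TSS clusters outside pairs. In the insulin and TOR list 15 of 19 genes (78.9%) had a peak, and 2 of the best peaks held the word. Sesn, which restrains TOR, ranked 370, 145 and 146 in replicates 1, 2 and 3, Pdk1, a kinase that activates Akt, ranked 958, 2272 and 641, and Pi3K21B, the adaptor of phosphatidylinositol 3-kinase, ranked 3318, 949 and 3792. Of 19 bZIP genes 14 had a peak, with the word at 1, the Pdp1 gene. CrebB, the cyclic AMP response factor, ranked 251, 418 and 182, and Atf3 ranked 646, 95 and 245. Of 15 ecdysone response genes 11 had a peak and none of the best peaks held the word. Their leading genes, Eip75B, ftz-f1 and Hr38, encode nuclear receptors and had summits 44 bp downstream, 272 bp upstream and 176 bp upstream of the TSS. The peak at ftz-f1 held a DRE.

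**Figure D5:**
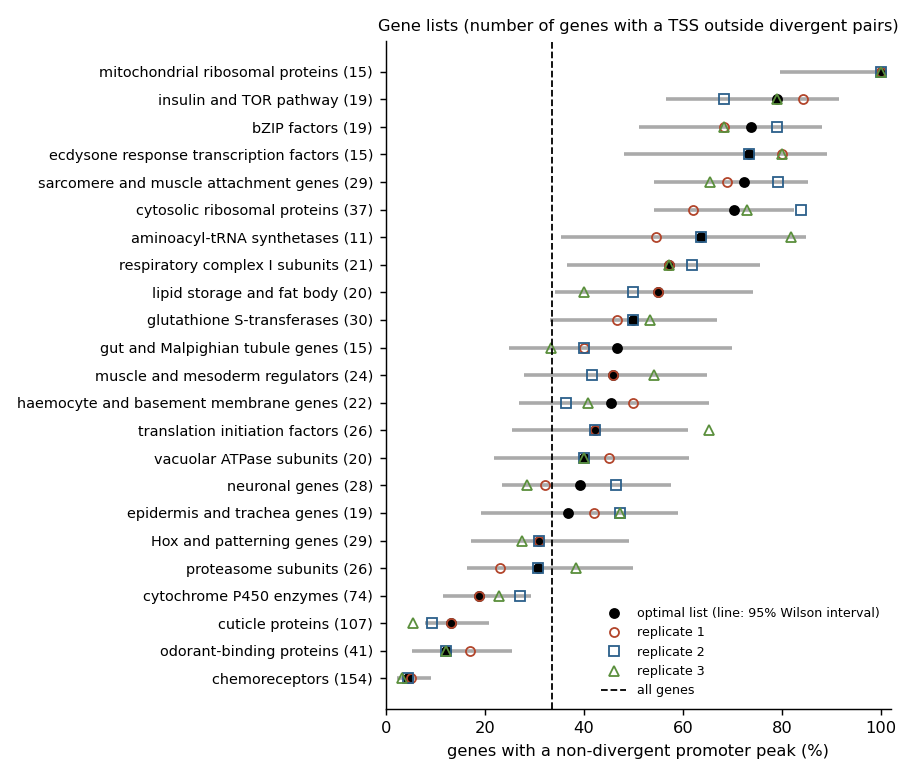
Share of the genes of each list (%) with a non-divergent promoter peak within 1 kb of a TSS, in the optimal list (black, with the 95% Wilson interval) and in each replicate (open symbols), against 33.6% of all genes (dashed line). The number of genes with a TSS outside divergent pairs, which alone were counted, is in brackets. The lists run from all 15 counted mitochondrial ribosomal protein genes, of 73 listed, down to 7 of 154 counted chemoreceptor genes.

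Muscle genes were counted in a pair of lists. Of 29 sarcomere and muscle attachment genes, 21 (72.4%) had a peak, in the replicates 20, 23 and 19, and 15 of the 21 best peaks held the family word. The strongest were mew, which encodes an integrin alpha chain of muscle attachment and had its summit 70 bp downstream of the TSS with a canonical site in the window, Mlc2, a myosin light chain, and Mhc, the myosin heavy chain. Mhc ranked 947, 902 and 1048 in the 3 replicates, and its best peak, 54 bp upstream of a TSS, had no family word. Of 24 muscle and mesoderm regulators 11 had a peak and 3 of these held the word. The peak at htl, the FGF receptor of the mesoderm, ranked 31, 79 and 33, far above the next ones at lbe, a homeobox gene of muscle identity, and bowl. Muscle is one tissue of the embryo, and fewer cells with a bound site cannot be told apart from weaker binding in more cells.

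In the lipid storage and fat body list 11 of 20 genes had a peak and 6 of these held the word. Lpin, a phosphatidate phosphatase, ranked 374, 180 and 310, mdy, a diacylglycerol acyltransferase, ranked 353, 748 and 555, and ACC, acetyl-CoA carboxylase, ranked 744, 4099 and 3009. ACC was thus strong in replicate 1 and weaker in the other two, and its peak held a canonical site. Of 30 glutathione S-transferase genes 15 had a peak, led by GstE13, and of 74 cytochrome P450 genes 14 did (18.9%), led by Cyp6u1, whose peak was nearest to another gene, Ufsp1. Both families hold related genes that lie side by side, and whether reads were split among similar copies was not tested.

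Lists of other tissues had shares between 31.0% and 46.7%. Peaks were found at 9 of 29 Hox and patterning genes, 11 of 28 neuronal genes, 7 of 19 epidermis and trachea genes, 10 of 22 haemocyte and basement membrane genes and 7 of 15 gut and Malpighian tubule genes. Antp, a Hox gene, ranked 1984, 6927 and 14411 in replicates 1, 2 and 3. The neuronal genes elav, which encodes an RNA-binding protein, and Syx1A, a syntaxin, ranked 1567, 199 and 602, and 669, 653 and 591. At shn, a zinc finger factor of Dpp signalling, the ranks were 584, 391 and 848. LanB2 and LanA, laminin chains, ranked 2346 and 3037 in the optimal list, and fkh, a fork head factor of the gut, 1663. Proteasome subunits, with 8 of 26, vacuolar ATPase subunits, with 8 of 20, and aminoacyl-tRNA synthetases, with 7 of 11, showed no common level. PheRS-m, a mitochondrial synthetase, ranked 100, 80 and 87.

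Cuticle and chemosensory genes were below the background. Peaks were found at 14 of 107 cuticle protein genes (13.1%), 7 of 154 chemoreceptor genes (4.55%) and 5 of 41 odorant-binding protein genes. The word was at 11, 5 and 4 of these best peaks. Cpr47Eg ranked 473 in replicate 1, and 4660 and 5928 in replicates 2 and 3. The peak within 1 kb of Or88a was nearest to another gene, CG12402. At Gr64f the whole list of replicate 3 held no summit within 200 bp, and at Or7a that of replicate 2 held none.

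The limit of 1 kb cut through a continuum of summits. Just inside it were summits at sty, 1000 bp upstream, with a signal of 290.1 in the optimal list, at HisT, 999 bp downstream, with 199, and at Eip75B, 998 bp upstream, with 1370. Just outside, each 1001 bp downstream, were summits at CG2201, with 608, Shrm, with 331, and CG5849, with 255. With a limit of 500 bp in place of 1 kb, the family word was at 25.3% of summits at non-divergent promoters and 14.6% at divergent ones.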

How the data were processed

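Anti-GFP ChIP-seq peak lists came from 3 biological replicates of 1 fly line, with sonication to fragments of 200 to 800 bp per the labels. The deposited files were narrowPeak lists made by the authors against a control alignment, per the file records. Which aligner and caller were run, and their versions, is not given in the sources used here. Each peak's deposited signal, set by the authors' caller, served for ranking within a list alone. Replicate lists held 30000 lines each and no read counts, so depth was unknown, and intervals cover the counting of peaks only.

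Members and gene lists were chosen with earlier results of these data known. Gene models were Ensembl release 115 (BDGP 6.54) and coordinates are 1-based. Each summit of an interval counted as a peak. Replicates entered by their 13583 strongest lines, classified like the optimal list, and each summit was matched to the strongest replicate summit within 200 bp. Python 3.11.15 with scipy 1.17.1 gave two-sided Fisher and sign tests, BH-adjusted over 32 motif tests (16 motifs, 2 comparisons) and over the 8 other tests, and for motifs at summits against windows 300 bp upstream and downstream over 32 more and for strongest against weakest peaks over another 8. Classification and motif search were tested on simulated data. Named were the nearest genes of the 20 strongest peaks found in all replicates, up to 3 genes per list by signal, and 3 summits on each side of the 1 kb limit. Sequences were shown for up to 8 of the 20 with the family word and up to 4 with the DRE, leaving out peaks on chromosome arm 2R. Symbols of the 23 lists were matched to the gene models, and 5 had no match. The dm3 lists and the pooled relaxed list were not used.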

Additional observations from a re-analysis of the deposited data

How the results depend on the processing

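Of 139 values recomputed under other settings, 130 were kept. Tested values counted as kept if they held their direction and their side of the threshold. Counts without a test had to stay within a set ratio of the main value. The difference in TTAYGTAA between non-divergent and divergent promoter peaks no longer passed with divergent pairs at most 500 bp apart (1.68 percentage points). It also did not pass in the stronger 50% of the optimal list (1.88). With replicate 1, 2 or 3 set aside, among peaks of that list found in both others, it was 0.192 to 0.702 and did not pass. The difference in peaks found in all 3 replicates, against divergent promoters, was −0.0854 points with whole replicate lists. In the stronger 50%, which holds fewer summits by construction, there were 2592 peaks at 2036 genes. Among genes with 1 later TSS alone, an alternative added after the data were seen, the first TSS led by 12.963 points over an even split. The cause of these changes was not tested beyond the construction named. Leaving out the Pdp1 gene and 20 kb on each side, also added later, changed no call. No paired analysis was possible because the series holds 1 group. Depth is unknown, summits of an interval are not independent, replicates came from 1 line, and how the control was made is not given, which limits what these lists can show.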
